A study of Mus musculus with 23 samples.

Results

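The strain difference described here is that between articular cartilage of male Str/ort and male CBA mice labelled 40 weeks old, with 4 arrays per strain. These are 8 of the 23 arrays of the study and were chosen by the strain and age labels alone. Str/ort is an inbred strain that develops osteoarthritis of the knee spontaneously as it ages, and CBA is the strain that the study set beside it. The other 15 arrays hold both strains at 8 and 18 weeks (3 arrays of Str/ort at 8 weeks and 4 in each other group), and they serve here for the spread between arrays and for a comparison across ages. All groups are males kept on a standard diet, and the labels name no treatment, transgene or deletion. The protocol names a commercial breeder for CBA alone, so strain and colony cannot be told apart. The series text calls the samples biological replicates and does not state how many mice went into an array, so p-values measure the spread between these samples.

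Articular cartilage consists of chondrocytes in a matrix of type II collagen and the proteoglycan aggrecan. Chondrocytes make this matrix and also the metalloproteinases that break it down, and in osteoarthritis they and the synovium make cytokines, chemokines and collagens of fibrous tissue. Mineralised cartilage borders on bone, marrow and fat, and the joint is surrounded by muscle, so that a dissected sample can carry RNA of all of them.

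RNA was measured on Affymetrix gene arrays and the values are RMA signals on a log2 scale, in which each step of 1 is a doubling. In lists of 4 values below, replicates 1 to 4 are given in order. A difference is Str/ort minus CBA with its standard error (SE), taken from a limma model over all 23 arrays, and a gene was called, or said to have risen or fallen in Str/ort, where its p-value after Benjamini-Hochberg adjustment over 19937 genes was under 0.05. Array medians lay between 7.83 and 8.00. In CBA replicate 3 the mean of 38 skeletal muscle markers was 13.06, against 7.85 to 8.34 in the other CBA arrays, 7.54 to 10.70 in Str/ort and 7.72 to 11.83 at the other ages. The median correlation of that array with its group was 0.941, against 0.9855 or more in all other arrays except CBA 8 weeks replicate 1, at 0.9747. Results are therefore given with and without CBA replicate 3. The tissue label was checked against 12 chondrocyte markers. Col2a1 lay between 9.32 and 10.78 and Acan between 8.72 and 11.83 on the 8 arrays, above each array's median, while Matn1 (means 6.29 in CBA and 6.34 in Str/ort) and Matn3 (6.91 and 6.76) lay below it. Erythroid markers had array means of 11.10 to 12.14 and neutrophil markers of 11.58 to 12.49.

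The calls made by limma numbered 714, which is 3.58% of all genes. Of these 243 (1.22%) were higher and 471 (2.36%) lower in Str/ort. After quantile normalization of the arrays the split was 606 higher and 445 lower. With CBA replicate 3 left out limma called 1700 genes, 412 higher and 1288 lower (8.53%, with 2.07% higher and 6.46% lower), and 640 of the 714 were among them. The median difference over all genes was 0.00. Among called genes the median size was 0.54, and 95 genes differed by more than 1, of which 49 were higher and 46 lower. 12 genes differed by more than 2. The 4 Str/ort arrays lay wholly above or wholly below the 4 CBA arrays in 2106 genes, which is 10.6% (3.99% above and 6.57% below), and 640 of these were called. Of the 714 calls 345 were kept whichever of the 8 arrays was left out, 121 higher and 224 lower. A fit on these 8 arrays alone called 189, and it kept 41 of the 88 called genes that the naming rule gives.

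**Figure D1:**
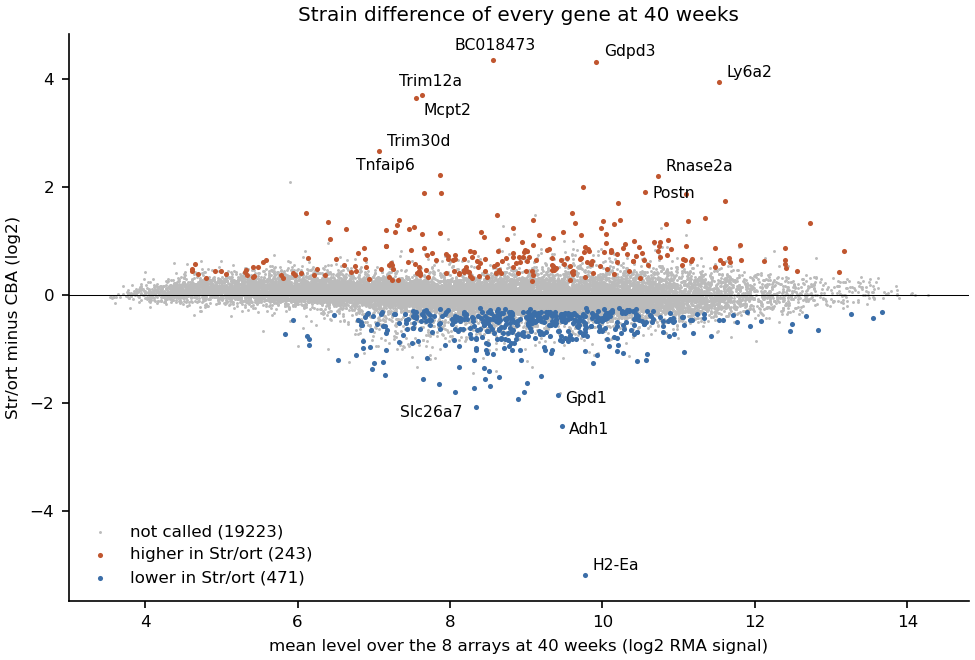
The difference of each of 19937 genes (vertical axis, Str/ort minus CBA, log2) is plotted against its mean level over the 8 arrays (horizontal axis, log2 RMA signal). Red points are the 243 genes called higher and blue points the 471 called lower; most lie within 1 of 0, and a few genes such as Gdpd3 (4.32) and H2-Ea (-5.19) stand far from the rest.

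Several collagens of fibrous connective tissue and several matricellular proteins rose in Str/ort. No gene of the cartilage matrix list was called with all arrays or without CBA replicate 3. Of 20 collagens outside the cartilage matrix list 6 rose, none fell and 14 were not called, against 1.22% of all genes called higher. The median over the 20 was 0.36, and 18 lay above 0. The fit without CBA replicate 3 called 4 of them (2.07% of all genes were higher) with a median of 0.37. Col12a1, a collagen that sits on the surface of fibrils in tendon and fascia, stood at 9.46, 9.77, 8.54 and 10.17 in CBA and at 11.34, 11.18, 10.23 and 10.47 in Str/ort. Every Str/ort array was above every CBA array, though CBA replicate 4 came close to the lowest Str/ort array. Its difference was 1.32 ± 0.28, or 2.50-fold (adjusted p = 0.00801, and 0.0126 at 1.01 without CBA replicate 3). The 3 main chains of type VI collagen, which forms the pericellular shell of chondrocytes, rose together. Col6a1 read 9.84, 10.01, 9.71 and 10.57 in CBA and 11.46, 11.06, 10.47 and 10.71 in Str/ort, so that CBA replicate 4 overlapped the lowest Str/ort array. Its difference was 0.89 ± 0.22 (adjusted p = 0.0202), that of Col6a2 was 0.83 ± 0.20 (adjusted p = 0.0225) and that of Col6a3 was 0.98 ± 0.24 (adjusted p = 0.0197). All 3 lost their call without CBA replicate 1 or without Str/ort replicate 1 or 2, Col6a2 also without CBA replicate 2, with adjusted p of up to 0.0786. Col1a1, the main collagen of bone and tendon, had a difference of 0.86 ± 0.24 (adjusted p = 0.0477) and Col8a1 of 0.80 ± 0.21 (adjusted p = 0.0306). Neither was called without CBA replicate 3 (0.59 and 0.66), and each lost its call in 5 more of the 8 fits with an array left out (adjusted p of up to 0.123 and 0.12).

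Matricellular proteins bind matrix and cells without building fibrils. Of 28 such genes and elastic fibre genes 4 rose and none fell (1.22% and 2.36% of all genes), with a median of 0.26. Postn, which encodes periostin, read 9.42, 9.70, 8.89 and 10.44 in CBA and 11.57, 12.21, 10.89 and 11.38 in Str/ort. The groups did not overlap, which the naming rule asks for, and the difference was 1.90 ± 0.29, or 3.73-fold (adjusted p = 0.000383). Tnc, tenascin C, lay at 12.28, 12.13, 11.58 and 12.27 in CBA and between 12.64 and 12.81 in Str/ort, a difference of 0.65 ± 0.13 (adjusted p = 0.00476). Leaving out any single array ended neither call. Tgfbi, a collagen-binding protein induced by TGF-beta, differed by 0.61 ± 0.16 (adjusted p = 0.0362) and was not called without Str/ort replicate 1, 2 or 4 (adjusted p of up to 0.108). Ltbp2, of the elastic fibre, differed by 0.52 ± 0.13 (adjusted p = 0.0202, and 0.0659 without Str/ort replicate 2). When CBA replicate 3 was left out these 4 genes were still called, the fibulin genes Fbln1 (-0.52) and Fbln5 (-0.66) fell, and the median was 0.13. That fit called 2.07% of all genes higher and 6.46% lower.

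All 20 genes of collagen processing and crosslinking lay above 0, with a median of 0.41, but limma called 1 of them, where 1.22% of all genes were higher. Plod2, the lysyl hydroxylase of collagen telopeptides, differed by 0.94 ± 0.24 (adjusted p = 0.0269) and was not called without Str/ort replicate 1, 2 or 4 (adjusted p of up to 0.0939). Vcan, the large proteoglycan versican of loose connective tissue, was the member called of 21 small leucine-rich and cell-surface proteoglycans. It differed by 0.75 ± 0.19 (adjusted p = 0.029, and 0.0521 without CBA replicate 3) and kept its call in 3 of 8 fits with an array left out.

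Of the cartilage matrix list none of 20 genes was called, with all arrays or without CBA replicate 3, although 17 lay above 0 and the median was 0.29 (0.25 without that array). In 6 of the 20 every Str/ort array lay above every CBA array (3.99% of all genes). After quantile normalization 1 of the list rose, and 1 with the mean of the skeletal muscle markers as a covariate. Those fits called 606 and 348 of all 19937 genes higher. Col2a1, type II collagen, read 9.74, 9.36, 9.32 and 9.72 in CBA and 10.78, 10.46, 9.95 and 10.21 in Str/ort. Acan, the aggrecan core protein, read 10.76, 10.18, 8.72 and 10.98 in CBA and 11.83, 11.20, 11.47 and 11.08 in Str/ort. In both genes every Str/ort array lay above every CBA array, though in Acan CBA replicate 4 nearly reached the lowest of them. The differences were 0.81 ± 0.26 (adjusted p = 0.0885) and 1.23 ± 0.47 (adjusted p = 0.154), and without CBA replicate 3 they were 0.74 and 0.75. Hapln1, the link protein that ties aggrecan to hyaluronan, was at 1.00 ± 0.37 (adjusted p = 0.146), and Cnmd, the cartilage protein chondromodulin, at 1.48 ± 0.56 (adjusted p = 0.151), with overlapping arrays. Prg4, which encodes the lubricant lubricin, lay between 13.25 and 13.66 on all 8 arrays, with a difference of 0.14 ± 0.10 (adjusted p = 0.488). The mean of the 12 chondrocyte markers was 8.95, 8.55, 8.36 and 8.77 in CBA and 9.34, 9.26, 9.06 and 9.18 in Str/ort, without overlap and with no member called. Its part in the differences of matrix genes was not tested. In such tissue samples, more cells of a type and more RNA per cell cannot be told apart.

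Of 20 chondrocyte regulators 1 rose and 1 fell (1.22% and 2.36% of all genes). Without CBA replicate 3 these were 1 and 2 (2.07% and 6.46% of all genes). Sox6, a partner of Sox9 in cartilage formation, read 10.99, 11.09, 10.89 and 10.65 in CBA and 10.44, 10.37, 10.36 and 10.41 in Str/ort. The groups did not overlap, and the difference of -0.51 ± 0.10 (adjusted p = 0.00412) was called whichever array was left out. Hif1a, the oxygen-sensitive transcription factor, rose by 0.66 ± 0.15 (adjusted p = 0.0143, and 0.0576 without Str/ort replicate 2). Sox9 was at 0.66 ± 0.25 and not called (adjusted p = 0.152), though its arrays did not overlap either, with 8.83 to 9.68 in CBA and 9.81 to 10.02 in Str/ort. Col10a1, a marker of hypertrophic chondrocytes, was at 1.11 ± 0.37 (adjusted p = 0.102) and ranged from 9.67 to 11.38 in CBA and from 11.31 to 11.87 in Str/ort. With the mean of the skeletal muscle markers as a covariate limma called it (1.01, adjusted p = 0.0329). Of 16 genes of hypertrophy and mineralisation none was called with all arrays, and the median was 0.40. In this list 1 gene rose without CBA replicate 3 and 3 after quantile normalization, fits that called 412 and 606 of all 19937 genes higher.

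Among 30 matrix proteases 26 lay above 0 and the median was 0.37, but Mmp13 was the one that limma called. The number called higher depended on the fit, at 8 after quantile normalization, 7 with the mean of the skeletal muscle markers as a covariate, 4 with both CBA 40 weeks replicate 3 and CBA 8 weeks replicate 1 left out and 0 without the former alone. In the same order, these fits called 606, 348, 1176 and 412 of all 19937 genes higher. Mmp13, the collagenase that is the main one acting on type II collagen, read 11.08, 11.81, 10.42 and 12.03 in CBA and 12.26, 12.54, 12.16 and 12.11 in Str/ort. The groups did not overlap, but CBA replicates 2 and 4 lay close to the lowest Str/ort array. The difference of 0.93 ± 0.24 (adjusted p = 0.0329) was 0.63 (adjusted p = 0.0509) without CBA replicate 3, and the call was kept in 2 of 8 fits with an array left out, with adjusted p of up to 0.105. Mmp3, stromelysin, read 7.67, 8.08, 7.89 and 8.01 in CBA and 9.31, 8.86, 7.78 and 8.95 in Str/ort. In 3 of the 4 Str/ort arrays it lay above all CBA arrays, and its difference of 0.81 ± 0.35 was not called (adjusted p = 0.212). Adamts5, the main aggrecanase of mouse cartilage, had a difference of -0.02 ± 0.18 (adjusted p = 0.967) that was 0.05 after quantile normalization. Of 17 protease inhibitors 2 rose with all arrays and 2 without CBA replicate 3, where 1.22% and 2.07% of all genes were higher. Timp1, the metalloproteinase inhibitor, read 9.96, 10.51, 9.54 and 10.70 in CBA and 11.23, 12.01, 10.99 and 11.76 in Str/ort, with no overlap. It rose by 1.32 ± 0.31, or 2.49-fold (adjusted p = 0.0156), and was not called without Str/ort replicate 2 or 4 (adjusted p of up to 0.0664). Tfpi2 differed by 0.40 ± 0.11 (adjusted p = 0.0483) and lost its call in 5 of 8 such fits (adjusted p of up to 0.168).

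**Figure D2:**
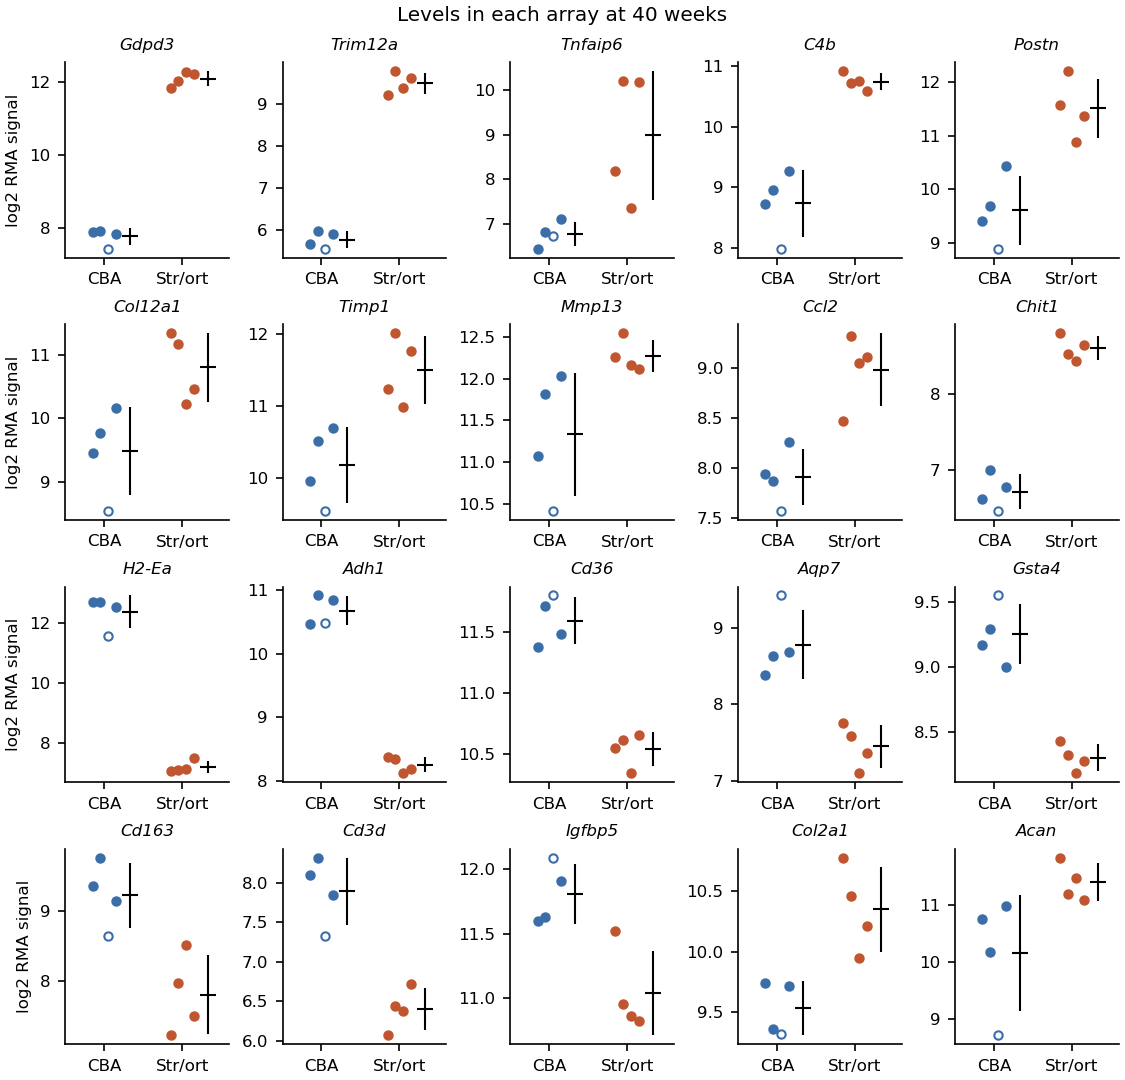
Levels of 20 genes on each of the 8 arrays (vertical axis, log2 RMA signal, scaled per gene), with CBA in blue and Str/ort in red; the open circle is CBA replicate 3 and the bars are the group mean ± SD over 4 arrays. In Gdpd3, H2-Ea and Adh1 the groups are far apart, whereas Mmp13, Col2a1 and Acan are separated by a margin smaller than the spread within CBA.

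The 250 bases before the gene start and the 50 after it were searched for TGANTCA, in which N is any base (RefSeq promoter windows, GRCm38.p6). This pattern takes in the motif of AP-1, the transcription factor made of Fos and Jun proteins, which has C or G in the middle, and is looser than it. It reads the same on both strands and was chosen after the values of the genes were seen. A match was found in 17% of the 188 genes called higher that have a window (32 genes), in 6.31% of 396 called lower (25 genes) and in 8.06% of all 15562 measured genes with one (1255 genes). These shares are those of the looser pattern, are a description and were not tested. A match does not show binding. Of the 52 called higher genes that the naming rule gives, 37 have a window and 7 hold a match, namely Mmp13, Tnfaip6, Chit1, Col6a1, Tfpi2, Gzmb and Trim30d, the last of them 38 bases after the start. The match in Tfpi2 is TGAATCA, with A in the middle. The windows of Mmp13 (chr9:7272264-7272513, plus strand), Tnfaip6 (chr2:52037863-52038112, plus strand), Chit1 (chr1:134110992-134111241, plus strand) and Col6a1 (chr10:76726045-76726294, minus strand) are shown because these genes stand for matrix breakdown, inflammation, macrophages and collagen, each as 250 bases ending at the base before the start, 5′ to 3′ on the gene's strand, with the motif in capitals. It begins 35, 142, 52 and 90 bases before the start.
Mmp13: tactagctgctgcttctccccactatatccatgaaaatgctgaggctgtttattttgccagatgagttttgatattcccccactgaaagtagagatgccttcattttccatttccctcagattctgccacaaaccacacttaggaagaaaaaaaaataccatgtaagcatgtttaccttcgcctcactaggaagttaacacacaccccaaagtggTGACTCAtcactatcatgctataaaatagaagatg
Tnfaip6: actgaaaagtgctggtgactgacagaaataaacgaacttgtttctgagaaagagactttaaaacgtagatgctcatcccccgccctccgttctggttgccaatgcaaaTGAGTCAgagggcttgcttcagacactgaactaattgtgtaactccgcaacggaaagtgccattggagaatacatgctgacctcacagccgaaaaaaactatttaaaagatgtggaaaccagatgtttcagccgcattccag
Chit1: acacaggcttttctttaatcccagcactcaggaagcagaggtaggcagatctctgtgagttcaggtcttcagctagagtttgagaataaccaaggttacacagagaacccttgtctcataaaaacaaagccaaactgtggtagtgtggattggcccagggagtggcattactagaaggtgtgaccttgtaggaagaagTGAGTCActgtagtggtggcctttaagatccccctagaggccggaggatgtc
Col6a1: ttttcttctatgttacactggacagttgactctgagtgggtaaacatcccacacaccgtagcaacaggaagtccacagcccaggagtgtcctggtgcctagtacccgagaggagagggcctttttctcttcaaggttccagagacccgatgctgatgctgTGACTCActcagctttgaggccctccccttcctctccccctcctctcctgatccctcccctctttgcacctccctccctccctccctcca

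Several genes of inflammation rose in Str/ort, among them secreted proteins and receptors. Tnfaip6, a hyaluronan-binding protein that inflammatory cytokines induce, read 6.43, 6.81, 6.71 and 7.10 in CBA and 8.18, 10.21, 7.35 and 10.18 in Str/ort. All Str/ort arrays were above all CBA arrays, which the naming rule asks for. The Str/ort arrays fell into a high pair (replicates 2 and 4) and a lower pair, and their SD of 1.45 was larger than that of CBA, 0.28. The difference of Tnfaip6 was 2.22 ± 0.47 (adjusted p = 0.00864) and was called whichever array was left out. It was not called in the fit on the 8 arrays alone (adjusted p = 0.154), which kept 41 of the 88 called genes of the naming rule. The CBA levels of Tnfaip6 lay below the array medians of 7.84 to 7.92 and were not shown to be above background, so no fold is given. Tnfaip6 was the called member of 29 genes of glycosaminoglycan synthesis and turnover.

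Of 29 inflammatory cytokines and receptors 5 rose and none fell (1.22% and 2.36% of all genes), with 25 above 0 and a median of 0.30. All 5 encode receptors or binding proteins. Il4ra, the receptor chain shared by interleukin-4 and interleukin-13, read 10.25, 9.95, 9.60 and 9.96 in CBA and 10.75, 10.68, 10.68 and 10.67 in Str/ort. The Str/ort arrays lay close together and above CBA, with a difference of 0.75 ± 0.12 (adjusted p = 0.000457). Its partner Il13ra1 rose by 0.81 ± 0.20 (adjusted p = 0.0224, up to 0.0808 without Str/ort replicate 2 or 4). The decoy receptor of interleukin-1, Il1r2, rose by 0.85 ± 0.22 (adjusted p = 0.0329), and was not called in 5 of 8 fits with an array left out, among them that without CBA replicate 3 (0.62, adjusted p = 0.0586). Tnfrsf1b, a receptor of tumour necrosis factor, was at 0.60 ± 0.14 (adjusted p = 0.0202, and 0.0898 without Str/ort replicate 4), and Il18bp, which binds interleukin-18, at 0.47 ± 0.10 (adjusted p = 0.00864). All but Il1r2 were called in the fit without CBA replicate 3, in which Il18 fell (-0.76) and the median was 0.18.

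Chemokines and their receptors changed in both directions, with 5 of 37 higher and 2 lower (background 1.22% and 2.36%) and a median of 0.08. Ccl2, which attracts monocytes, read 7.94, 7.87, 7.57 and 8.26 in CBA and 8.47, 9.32, 9.05 and 9.11 in Str/ort. Ccl7, which acts on the same receptor, read 7.60, 7.59, 7.49 and 7.81 in CBA and 8.22, 8.41, 8.15 and 8.60 in Str/ort. Neither gene had overlapping groups, and the differences of 1.08 ± 0.15 (adjusted p = 0.000127) and 0.72 ± 0.13 (adjusted p = 0.00205) were called whichever array was left out. Cxcl16 (0.66 ± 0.16, adjusted p = 0.0193), its receptor Cxcr6 (0.44 ± 0.09, adjusted p = 0.00612) and Ccl9 (0.55 ± 0.14, adjusted p = 0.0328) also rose. Cxcl16 lost its call without Str/ort replicate 2 or 4 and Ccl9 in 5 of 8 fits, CBA replicate 3 included (adjusted p of up to 0.0838 and 0.102). The receptors that fell were Ccr3, the eotaxin receptor, and Ccr9 (-0.61 ± 0.17, adjusted p = 0.0454), whose call was kept in the fit without CBA replicate 3 (-0.88) and in no other fit with an array left out (adjusted p of up to 0.136). Ccr3 read 10.08, 10.28, 9.11 and 10.01 in CBA and 7.44, 8.24, 8.47 and 8.18 in Str/ort, a difference of -1.79 ± 0.28 (adjusted p = 0.000498). Its groups did not overlap, which the naming rule asks for. Without CBA replicate 3, 4 rose and 5 fell (2.07% and 6.46% of all genes).

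Complement, the cascade of plasma proteins that tags and lyses targets, split as well. Of 22 genes 4 were higher and 2 lower (1.22% and 2.36% of all genes), with a median of 0.06. C4b, the fourth component, read 8.73, 8.96, 7.99 and 9.27 in CBA and 10.91, 10.71, 10.75 and 10.58 in Str/ort, a difference of 2.00 ± 0.21, or 4.01-fold (adjusted p = 5.06e-06). C4a, a near-identical copy whose probes may read both genes, rose by 0.87 ± 0.17 (adjusted p = 0.00361). Cd59a, which shields cells from lysis, rose by 0.66 ± 0.15 (adjusted p = 0.0116, and 0.0506 without Str/ort replicate 2). C1s1, a protease of the C1 complex, divided the CBA arrays, with 5.05, 8.63, 5.66 and 8.44 in CBA against 8.99, 9.19, 8.52 and 8.63 in Str/ort. CBA replicates 2 and 4 lay at the level of Str/ort and replicates 1 and 3 near the CBA means of the younger ages, 4.99 ± 0.30 (SD, n = 4) at 8 weeks and 5.25 ± 0.40 (SD, n = 4) at 18 weeks. The labels give the 4 arrays as 1 strain, and whether their mice came from 1 source was not tested. In Gdpd3, H2-Ea and Trim12a no CBA array lay near Str/ort, but the rule that named them asks for groups without overlap, so they cannot test this. The C1s1 difference of 1.89 ± 0.52 (adjusted p = 0.0477) was kept in 2 of 8 fits with an array left out and was 1.46 (adjusted p = 0.0808) without CBA replicate 3. C2 (-0.64 ± 0.12, adjusted p = 0.00406) and C6 (-0.71 ± 0.14, adjusted p = 0.00612) fell, each with no overlap and with a call that no left-out array ended. Without CBA replicate 3, 3 rose and 2 fell (2.07% and 6.46% of all genes).

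Genes of eosinophils, basophils and mast cells, the effector cells of allergic inflammation, were measured by 21 markers. Of these 6 rose and 1 fell in Str/ort (1.22% and 2.36% of all genes), with a median of 0.42. Mcpt2, a mast cell protease, read 5.73, 5.56, 5.89 and 5.74 in CBA and 8.75, 9.89, 9.20 and 9.65 in Str/ort, a difference of 3.64 ± 0.19 (adjusted p = 2.36e-11). The CBA arrays lay below the array medians of 7.84 to 7.92 and were not shown to be above background, so no fold is given, and the log2 difference may understate the change. Mcpt8, a basophil protease, read 10.89, 10.36, 9.17 and 10.24 in CBA and 11.58, 12.13, 12.30 and 12.10 in Str/ort, a difference of 1.87 ± 0.25 (adjusted p = 8.79e-05). Rnase2a, a ribonuclease of eosinophil granules, read 9.95, 10.23, 8.57 and 9.77 in CBA and 11.64, 11.93, 11.87 and 11.88 in Str/ort, a difference of 2.20 ± 0.25 (adjusted p = 1.41e-05). In none of the 3 did the groups overlap, and no left-out array ended a call. The lack of overlap and the call without CBA replicate 3 are asked for by the naming rule and were fixed by the choice of genes. They belong to families of similar genes, so that probes may read more than the named member. Hdc, which makes histamine, rose by 0.77 ± 0.18 (adjusted p = 0.0147, and 0.0542 without Str/ort replicate 4), as did Fcer1a, the receptor chain for IgE (0.83 ± 0.21, adjusted p = 0.0244), and Prg2, eosinophil major basic protein (0.63 ± 0.17, adjusted p = 0.0396). Fcer1a was not called without Str/ort replicate 2, 3 or 4 and Prg2 not without CBA replicate 3 (0.40) or Str/ort replicate 1, 2 or 4, with adjusted p of up to 0.092 and 0.13. Ccr3, which eosinophils also carry, was the member that fell. Markers of connective tissue mast cells were not called, with Mcpt4 at 0.17 ± 0.15 (adjusted p = 0.559), Cma1 at 0.07 ± 0.09 (adjusted p = 0.718) and Tpsb2 at 0.10 ± 0.10 (adjusted p = 0.624). The list mean was 8.74, 8.67, 7.98 and 8.61 in CBA and 8.88, 9.16, 9.04 and 9.18 in Str/ort. Without CBA replicate 3, 5 rose and 2 fell (2.07% and 6.46% of all genes), and the median was 0.21.

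Macrophage genes changed in opposite directions, with 2 of 25 higher and 5 lower (1.22% and 2.36% of all genes). Without CBA replicate 3 these were 2 and 7 (2.07% and 6.46% of all genes). Chit1, a chitinase of activated macrophages, had a mean of 6.72 ± 0.23 (SD, n = 4) in CBA and 8.60 ± 0.16 (SD, n = 4) in Str/ort, a difference of 1.88 ± 0.16 (adjusted p = 1.31e-07), from a CBA level below the array medians. The scavenger receptor gene Msr1 rose by 0.98 ± 0.21 (adjusted p = 0.0109), with overlapping arrays. Those that fell are markers of macrophages resident in tissue. Cd163, the haemoglobin scavenger receptor, read 9.35, 9.76, 8.64 and 9.14 in CBA and 7.23, 7.98, 8.52 and 7.51 in Str/ort, a difference of -1.41 ± 0.27 (adjusted p = 0.0037). The groups did not overlap, with Str/ort replicate 3 the nearest to CBA. Siglec1, the sialic acid receptor of such macrophages, read 9.45, 9.90, 8.91 and 9.50 in CBA and 8.02, 8.43, 8.70 and 8.48 in Str/ort, a difference of -1.03 ± 0.16 (adjusted p = 0.000505). Mertk (-0.82 ± 0.17, adjusted p = 0.00701), Timd4 (-0.76 ± 0.19, adjusted p = 0.023) and Mrc1 (-0.72 ± 0.19, adjusted p = 0.0385) were lower with overlapping arrays, the first 2 of them being receptors for dying cells and the third the mannose receptor. Timd4 lost its call without CBA replicate 1 or 2 or Str/ort replicate 1 or 4 and Mrc1 in 6 of 8 fits (adjusted p of up to 0.0798 and 0.126). The list mean was 9.73, 10.03, 9.20 and 9.75 in CBA and 9.27, 9.64, 9.70 and 9.68 in Str/ort, which overlap. Of 15 osteoclast markers, a related lineage that resorbs bone, 2 rose and 14 lay above 0. Atp6v0d2, a subunit of the proton pump, differed by 1.36 ± 0.35 (adjusted p = 0.0329) and the fusion gene Dcstamp by 0.64 ± 0.17 (adjusted p = 0.0323). Without CBA replicate 3, in which Atp6v0d2 was lowest at 7.68, these were 0.81 (adjusted p = 0.0234) and 0.45 (adjusted p = 0.0549), and they lost their call in 4 and 5 of 8 fits with an array left out (adjusted p of up to 0.0899 and 0.0985).

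**Figure D3:**
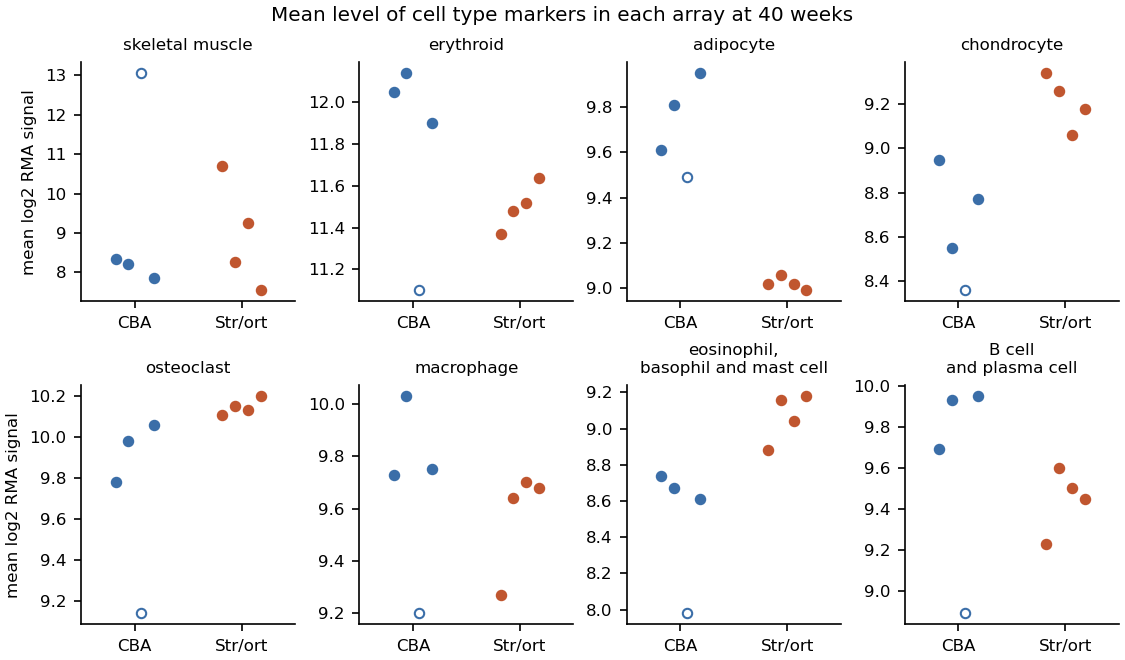
Mean level of 8 lists of cell type markers on each of the 8 arrays (vertical axis, log2 RMA signal, scaled per list), with CBA in blue, Str/ort in red and CBA replicate 3 as an open circle. That array is highest for skeletal muscle (13.06) and lowest of all 8 for erythroid, chondrocyte, osteoclast, macrophage, eosinophil, basophil and mast cell and B cell markers; adipocyte, chondrocyte, osteoclast and eosinophil, basophil and mast cell means do not overlap between the strains, the osteoclast means by a narrow margin (10.06 in the highest CBA array, 10.11 in the lowest Str/ort array).

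The difference with the greatest size was that of a gene of antigen presentation. H2-Ea, the alpha chain of the class II molecule I-E, read 12.70, 12.67, 11.56 and 12.53 in CBA and 7.05, 7.08, 7.11 and 7.47 in Str/ort. The Str/ort arrays lay below the array median and were not shown to be above background, and the difference of -5.19 ± 0.18 (adjusted p = 1.86e-14) may understate the change. Among the other 13 measured class II genes, H2-Ob, a regulator of peptide loading in B cells, rose by 0.68 ± 0.17 (adjusted p = 0.0258, up to 0.0972 without Str/ort replicate 2, 3 or 4), 12 were not called, and the list median was 0.07. Of 19 class I genes H2-Q2 rose, by 0.28 ± 0.08 (adjusted p = 0.0409), and lost its call in 6 of 8 fits with an array left out (adjusted p of up to 0.126). Without CBA replicate 3, 1 class I gene rose and 2 fell, where 2.07% of all genes were higher and 6.46% lower. H2 genes are similar to each other, and probes may not tell them apart.

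Some families of interferon-inducible and antiviral genes held members that changed in opposite directions. Of 36 interferon response genes 1 rose, Ifitm1, which blocks the entry of viruses, at 1.36 ± 0.16 (adjusted p = 1.6e-05), and the median was 0.07 (-0.11 without CBA replicate 3). In the p200 family, sensors of nucleic acid, 1 of 10 rose and 3 fell (1.22% and 2.36% of all genes). Ifi202b read 7.07, 7.56, 6.67 and 6.97 in CBA and 8.10, 8.50, 8.30 and 7.86 in Str/ort, a difference of 1.12 ± 0.23 (adjusted p = 0.00612). Ifi209 read 8.82, 9.26, 7.94 and 8.70 in CBA and 7.12, 6.62, 6.93 and 7.41 in Str/ort, a difference of -1.66 ± 0.22 (adjusted p = 7.92e-05). Ifi214 (-1.37 ± 0.16, adjusted p = 1.93e-05) and Ifi203 (-1.04 ± 0.15, adjusted p = 0.000228) fell as well, and none of the 4 had overlapping groups. For Ifi209 the naming rule asks for this. Of 8 Trim genes akin to Trim5, which restricts retroviruses, 2 rose and 1 fell. Trim12a read 5.67, 5.99, 5.56 and 5.91 in CBA and 9.21, 9.77, 9.36 and 9.60 in Str/ort, a difference of 3.70 ± 0.16 (adjusted p = 5.85e-13). Trim30d lay between 5.71 and 5.77 in CBA and between 8.13 and 8.74 in Str/ort, a difference of 2.66 ± 0.17 (adjusted p = 1.08e-09), and Trim68 was lower by -0.78 ± 0.09 (adjusted p = 1.51e-05). The CBA levels of Trim12a and Trim30d, like that of Mcpt2, were not shown to be above background. The calls of these 8 genes were each kept in all 8 fits with an array left out. Trim12a, Trim30d and the p200 genes have close copies in the genome, so that the named member is uncertain. The probes were designed on reference mouse sequence, and the effect of sequence variants of either strain under them was not tested.

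Other genes with large differences belong to none of these lists. Gdpd3, a lysophospholipase D, read 7.88, 7.92, 7.42 and 7.83 in CBA and 11.83, 12.01, 12.27 and 12.22 in Str/ort, a difference of 4.32 ± 0.13 (adjusted p = 1.24e-15). Its CBA levels lay near the array medians or below them and were not shown to be above background, so no fold is given. Ly6a2, of the Ly6 family of membrane-anchored proteins, which are similar to each other, read 9.54, 10.13, 8.92 and 9.65 in CBA and 13.43 to 13.56 in Str/ort, a difference of 3.94 ± 0.17 (adjusted p = 9.35e-13). Wfdc17, a secreted protein of activated macrophages, read 11.07, 11.11, 9.76 and 11.04 in CBA and 12.20 to 12.83 in Str/ort, a difference of 1.74 ± 0.27 (adjusted p = 0.000343). In Gdpd3 and Ly6a2 the gap between the strains was wider than the spread within either, and in Wfdc17 the arrays did not overlap. Among those that fell, Ttc9 (-1.80 ± 0.16, adjusted p = 2.99e-07), the anion exchanger gene Slc26a7 (-2.07 ± 0.19, adjusted p = 6.06e-07), the leukocyte integrin gene Itgad (-1.63 ± 0.19, adjusted p = 1.93e-05), the protease inhibitor gene Serpina3b (-1.73 ± 0.28, adjusted p = 0.000767) and Padi2, which converts arginine to citrulline in proteins (-1.68 ± 0.22, adjusted p = 6.32e-05), had no overlap between strains. CBA replicate 3 was the highest array for Padi2, at 10.41, and without it the difference was -1.33 (adjusted p = 7.82e-07). None of these 8 lost its call in any fit with an array left out. They were named by the rule that asks for a call without CBA replicate 3 and for groups without overlap, so both were fixed in advance.

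Several markers of fat cells fell in Str/ort. Of 18 adipocyte markers 6 fell and none rose (2.36% of all genes were lower), 16 lay below 0 and the median was -0.71, and without CBA replicate 3 those numbers were 10 lower (6.46%), none higher and -0.82. The list mean was 9.61, 9.81, 9.49 and 9.95 in CBA and 9.02, 9.06, 9.02 and 8.99 in Str/ort, with no overlap. Fabp4, the fatty acid carrier of adipocytes, read 11.05, 11.46, 10.81 and 11.36 in CBA and 9.67, 10.20, 9.86 and 10.15 in Str/ort, a difference of -1.20 ± 0.22 (adjusted p = 0.00277). Aqp7, the channel through which fat cells release glycerol, read 8.38, 8.63, 9.42 and 8.68 in CBA and 7.76, 7.58, 7.10 and 7.36 in Str/ort, a difference of -1.33 ± 0.24 (adjusted p = 0.00244). Neither had overlapping groups, and both calls were kept in all 8 fits with an array left out. Cidec, a lipid droplet protein, read 9.38, 9.90, 8.37 and 9.97 in CBA and 7.79 to 8.03 in Str/ort, and its difference of -1.53 ± 0.38 (adjusted p = 0.0239) became -1.87 (adjusted p = 0.00259) without CBA replicate 3, while 5 other left-out arrays ended the call (adjusted p of up to 0.0761). Gpd1, glycerol 3-phosphate dehydrogenase, which muscle also expresses, read 9.60, 9.98, 12.10 and 9.68 in CBA and 8.28 to 8.82 in Str/ort, and its difference of -1.85 ± 0.40 (adjusted p = 0.00913) was -1.26 (adjusted p = 0.00535) without CBA replicate 3. Plin4, a lipid droplet coat protein (-1.03 ± 0.28, adjusted p = 0.0376, and 0.0618 without CBA replicate 3), and the lipase gene Pnpla2 (-0.45 ± 0.11, adjusted p = 0.016, up to 0.0649 without Str/ort replicate 2, 3 or 4) fell too, and 5 more left-out arrays ended the call of Plin4 (adjusted p of up to 0.119). Adipoq, the adipocyte hormone adiponectin, was called without CBA replicate 3 (-1.13, adjusted p = 0.00047) and not with it (-0.79 ± 0.25, adjusted p = 0.0782).

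Of 22 genes of fatty acid oxidation and lipid handling 6 fell and none rose (2.36% of all genes were lower), with a median of -0.41, or 5 lower (6.46%) and -0.24 without CBA replicate 3. After quantile normalization 2 were lower and with the muscle mean as a covariate 9, fits that called 445 and 753 of all 19937 genes lower. The list mean was 10.67 in CBA replicate 3, the array with the muscle RNA, 9.81 to 9.91 in the other CBA arrays and 9.56 to 9.72 in Str/ort. Cd36, the fatty acid transporter, read 11.38, 11.71, 11.80 and 11.48 in CBA and 10.55, 10.61, 10.34 and 10.65 in Str/ort, a difference of -1.05 ± 0.16 (adjusted p = 0.000468). Ehhadh, an enzyme of peroxisomal oxidation, read 8.11, 7.93, 8.32 and 8.05 in CBA and 7.33 to 7.54 in Str/ort, a difference of -0.68 ± 0.09 (adjusted p = 0.000109). Both were far from overlapping, and no left-out array ended either call. The mitochondrial genes Acadl (-0.57 ± 0.15, adjusted p = 0.0318), Slc25a20 (-0.56 ± 0.15, adjusted p = 0.0385), Etfdh (-0.50 ± 0.12, adjusted p = 0.026) and Cpt2 (-0.34 ± 0.08, adjusted p = 0.0133) fell by less. Acadl and Slc25a20 were not called without CBA replicate 3 (-0.42 for each, adjusted p = 0.0563 and 0.0672), Acadl was not called after quantile normalization either (-0.49, adjusted p = 0.0713), and further arrays ended the call of all 4, Cpt2 by Str/ort replicate 3 alone (adjusted p of up to 0.132 over the 4). Of 37 genes of oxidative phosphorylation all lay below 0 with a median of -0.31, and 1 was called, the complex I subunit gene Ndufa10 (-0.47 ± 0.11, adjusted p = 0.022, up to 0.059 without Str/ort replicate 2, 3 or 4). That list's mean was 11.12, 11.17, 11.85 and 11.05 in CBA and 10.94 to 11.01 in Str/ort. CBA replicate 3, the array with the muscle RNA, stood highest, and without it the median was -0.16 with Ndufa10 still called. After quantile normalization none of the list was called (Ndufa10 adjusted p = 0.0803), and with the muscle mean as a covariate 8 were lower. Over all genes those fits called 445 and 753 lower. Of 19 genes of cholesterol synthesis 2 fell, Hsd17b7 (-0.83 ± 0.10, adjusted p = 3.17e-05) and Hmgcs1 (-0.44 ± 0.12, adjusted p = 0.0442, and 0.0527 without CBA replicate 3). Hmgcs1 lost its call in 6 of 8 fits (adjusted p of up to 0.168), and 4 genes of this list fell without CBA replicate 3. Of 19 glycolysis genes Aldoc rose, by 0.54 ± 0.11 (adjusted p = 0.00456), and the list median of -0.03 was 0.21 without CBA replicate 3.

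Adh1, Cyp2f2 and Gstz1 were 3 of the 12 greatest falls that the naming rule gives. Adh1, alcohol dehydrogenase, which also oxidises retinol, read 10.47, 10.92, 10.49 and 10.84 in CBA and 8.37, 8.34, 8.12 and 8.19 in Str/ort, a difference of -2.43 ± 0.14, or 5.37-fold (adjusted p = 2.82e-10). Cyp2f2, a cytochrome P450, read 9.57, 10.26, 8.92 and 10.71 in CBA and 8.01, 8.47, 7.49 and 7.76 in Str/ort, a difference of -1.93 ± 0.39 (adjusted p = 0.00612). Gstz1, of tyrosine breakdown, read 9.11, 9.13, 9.51 and 9.20 in CBA and 7.98, 7.72, 7.45 and 7.56 in Str/ort, a difference of -1.56 ± 0.16 (adjusted p = 5.06e-06). No left-out array ended any of the 3 calls, and no array of either strain reached the range of the other. The naming rule asks for a call without CBA replicate 3 and for groups without overlap, so both were fixed by the choice of genes. Of 31 antioxidant and detoxifying genes 4 fell and 1 rose (2.36% and 1.22% of all genes), and all 4 that fell encode glutathione S-transferases. Gsta4, which removes the lipid peroxidation product hydroxynonenal, lay between 8.18 and 8.43 in Str/ort, below every CBA array, the highest of which was replicate 3 at 9.55, and its difference was -0.95 ± 0.13 (adjusted p = 8.08e-05). Gstm5 (-0.64 ± 0.12, adjusted p = 0.00226) and Gstt1 (-0.59 ± 0.13, adjusted p = 0.0116) kept their call in every such fit, as did Gsta4, while Gstp1 (-0.37 ± 0.10, adjusted p = 0.0385) lost its call in 6 of 8 (adjusted p of up to 0.108). Gpx8, a peroxidase of the endoplasmic reticulum, rose by 0.62 ± 0.15 (adjusted p = 0.0256, up to 0.0945 without Str/ort replicate 2 or 4). Without CBA replicate 3, 1 rose and 7 fell (2.07% and 6.46% of all genes), with the haem oxygenase gene Hmox1 at -1.02 (adjusted p = 0.00538).

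Lists of dividing and blood-forming cells depended on CBA replicate 3. None of 33 cell cycle genes was called with all arrays (median -0.15), and 14 were called lower without that array (median -0.38), a fit that called 6.46% of all genes lower against 2.36% with all arrays, among them the proliferation marker Mki67, which read 12.76, 12.85, 12.08 and 12.55 in CBA and 12.27 to 12.37 in Str/ort. CBA replicate 3 lay below Str/ort and the other 3 CBA arrays above it. The same held for erythroid markers, whose list mean was 12.05, 12.14, 11.10 and 11.90 in CBA and 11.37, 11.48, 11.52 and 11.64 in Str/ort. None of the 14 was called with all arrays (median -0.28) and 7 were lower without CBA replicate 3 (median -0.51). Of 26 B cell and plasma cell markers none was called with all arrays and 10 were lower without it (medians -0.14 and -0.42), among them Blnk, an adaptor of the B cell receptor (-0.65, adjusted p = 0.000443, against -0.31 and 0.436 with all arrays). Of 18 T cell markers 2 fell with all arrays. Cd3d read 8.09, 8.31, 7.32 and 7.84 in CBA and 6.07, 6.44, 6.38 and 6.72 in Str/ort, a difference of -1.49 ± 0.20 (adjusted p = 6.32e-05), and Cd3g was at -0.81 ± 0.21 (adjusted p = 0.0275, up to 0.093 in the 5 fits in which a left-out array ended the call). Both are chains of the T cell receptor complex, and the list median was -0.09. Without CBA replicate 3, 4 T cell markers fell and none rose. Of 22 neutrophil markers the antimicrobial peptide gene Camp rose (0.82 ± 0.14, adjusted p = 0.000858) and Ly6g fell (-0.35 ± 0.10, adjusted p = 0.0458), the latter with a call that 6 of 8 left-out arrays ended (adjusted p of up to 0.123), and 20 lay above 0 with a median of 0.25. Of 18 natural killer cell markers Klra8 (0.61 ± 0.14, adjusted p = 0.0156) and Gzmb (0.59 ± 0.14, adjusted p = 0.0202) rose, where 1.22% of all genes were higher. Each lost its call without Str/ort replicate 3 and also without 1 other array (adjusted p of up to 0.0695 and 0.0914). Klra8 read 5.03 to 6.09 and Gzmb 6.77 to 7.83 on the 8 arrays, below the array medians of 7.84 to 7.92. Neither was shown to be above background. Without CBA replicate 3, 2 markers of this list rose and 2 fell (2.07% and 6.46% of all genes). Among markers of other tissues of the joint, Fibin rose of 16 genes of synovial fibroblasts and tendon (1.34 ± 0.28, adjusted p = 0.00732), Robo4 fell of 16 of endothelium (-0.42 ± 0.10, adjusted p = 0.0187) and Kcnj8 fell of 15 of pericytes and smooth muscle (-0.44 ± 0.12, adjusted p = 0.0405). The last 2 lost their call in 5 and 6 of 8 fits with an array left out (adjusted p of up to 0.0671 and 0.123). Col1a1 was the member called of 13 osteoblast and osteocyte markers, whose median was 0.39. None of 10 megakaryocyte, 13 Schwann cell and 12 keratinocyte markers was called with all arrays, and 1 megakaryocyte marker fell without CBA replicate 3. None of 38 skeletal muscle markers was called, and their median of -0.48 became 0.80 without CBA replicate 3.

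The genes called without CBA replicate 3 and not with it numbered 1060, of which 862 were lower in Str/ort and 198 higher. Those with the greatest falls and no overlap with the 3 CBA arrays were Adck1 (-2.10, adjusted p = 0.0186), the immunoglobulin gene Ighg3 (-1.76, adjusted p = 0.0235), the cytochrome P450 gene Cyp2e1 (-1.51, adjusted p = 0.0115), the chemokine gene Cxcl9 (-1.17, adjusted p = 0.00861) and Scd1, which desaturates fatty acids in adipocytes (-1.17, adjusted p = 0.0168). With all arrays their adjusted p lay between 0.0525 and 0.142. Adck1 read 8.50, 8.65, 10.21 and 6.79 in Str/ort, a wide spread with an SD of 1.40. The greatest rises were those of Zc3h3 (1.30), the microRNA gene Mir301b (0.93), the zinc finger genes Zfp600 (0.82) and Zfp971 (0.78), and Fxyd6, a regulator of the sodium pump (0.73), with adjusted p from 0.0058 to 0.0177 without the array and from 0.0609 to 0.226 with it. Zfp600 (4.32 to 5.67), Mir301b (5.61 to 7.30) and Cyp2e1 (5.88 to 7.64) lay below the array medians on all 8 arrays and were not shown to be above background. Zc3h3 read 6.63, 8.66, 9.56 and 8.01 in CBA and 9.01 to 9.16 in Str/ort, so that its CBA arrays differed by more than the strains. For Scd1 the CBA values were 12.60, 12.76, 11.52 and 12.90 and those of Str/ort 11.43 to 11.99.

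**Figure D4:**
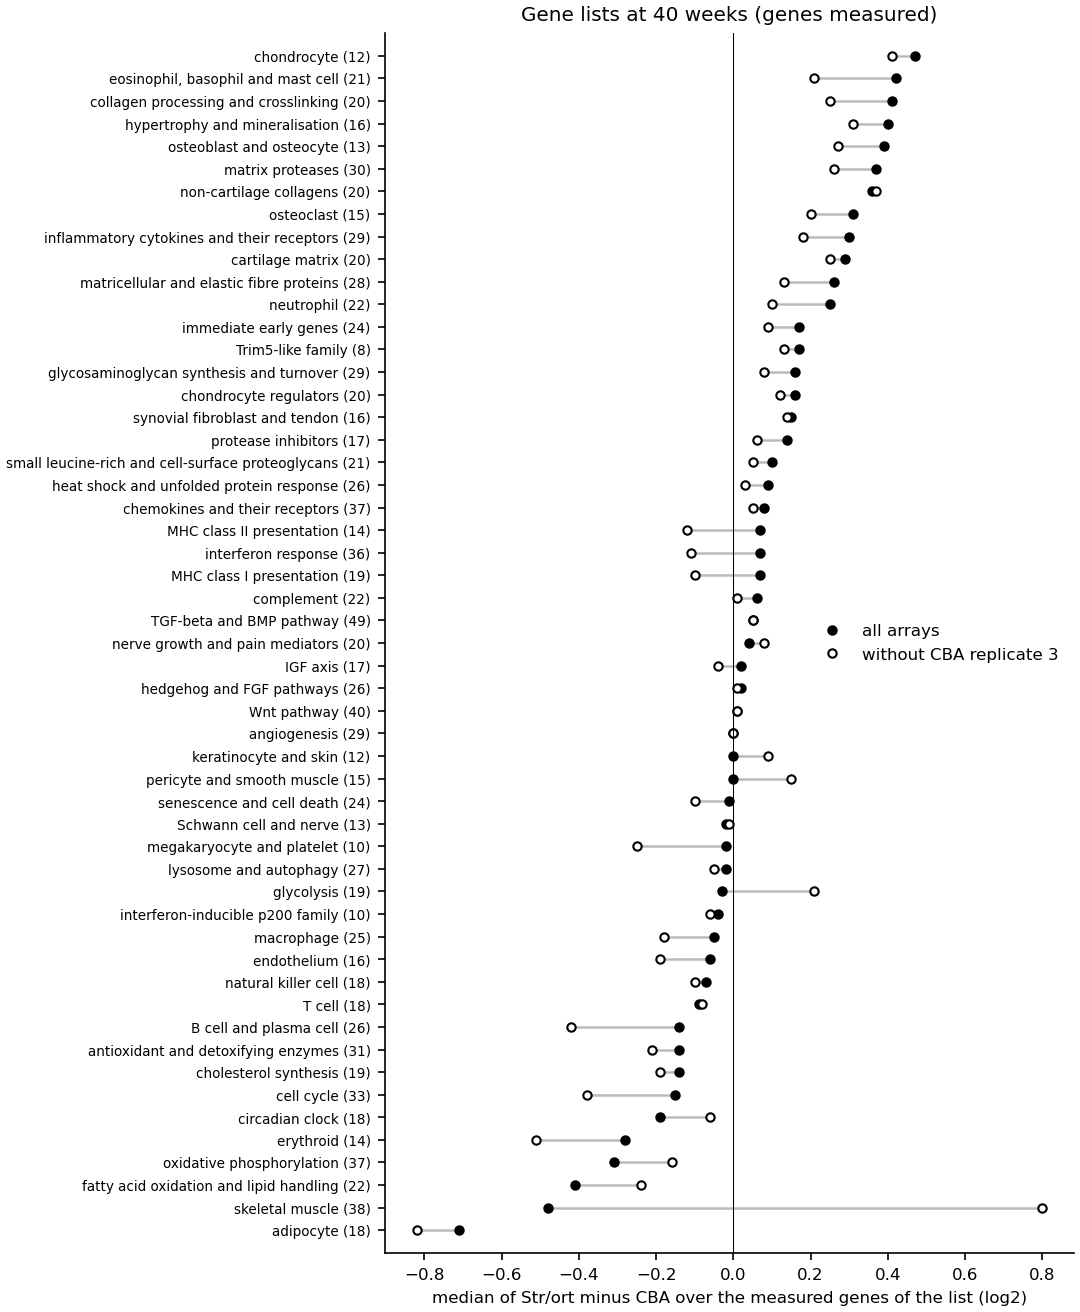
Median difference of each gene list (horizontal axis, Str/ort minus CBA, log2; number of measured genes in brackets), with all arrays as filled and without CBA replicate 3 as open circles. Collagen, protease and chondrocyte lists lie to the right of 0 and adipocyte, fatty acid oxidation and erythroid lists to the left under both, while the muscle list moves from -0.48 to 0.80.

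In lists of signalling pathways of the joint single members were called, where limma called 3.58% of all genes. Of 49 TGF-beta and BMP pathway genes 2 rose, Acvrl1, an endothelial receptor of the family (0.69 ± 0.12, adjusted p = 0.00174), and Inhba, which encodes activin A (0.79 ± 0.19, adjusted p = 0.0172, up to 0.0752 without Str/ort replicate 2 or 4). Of 40 Wnt pathway genes the receptor gene Fzd1 rose (0.44 ± 0.11, adjusted p = 0.0192), with its call ended by 5 of 8 left-out arrays (adjusted p of up to 0.0738). Of 17 genes of the IGF axis Igfbp5, which binds insulin-like growth factors in matrix, fell. It read 11.60, 11.63, 12.09 and 11.91 in CBA and 11.52, 10.95, 10.86 and 10.82 in Str/ort, where replicate 1 stood close to CBA, and the difference was -0.77 ± 0.16 (adjusted p = 0.00717). Of 18 clock genes the transcription factor genes Dbp (-0.69 ± 0.12, adjusted p = 0.00171) and Nfil3 (0.40 ± 0.09, adjusted p = 0.0138, and 0.051 without Str/ort replicate 1) changed in opposite directions. These proteins bind the same DNA element with opposite effects, and the labels give no hour of dissection. Of 24 immediate early genes Ier3 rose (0.57 ± 0.13, adjusted p = 0.0114), and of 29 angiogenesis genes Angpt2 rose (0.82 ± 0.17, adjusted p = 0.00611) and the apelin receptor gene Aplnr fell (-0.56 ± 0.14, adjusted p = 0.0296, and -0.70 with 0.00206 without CBA replicate 3). Every other left-out array ended the call of Aplnr (adjusted p of up to 0.0984). With all arrays none of 26 hedgehog and FGF, 20 nerve growth and pain, 26 heat shock, 24 senescence and 27 lysosome genes was called. Without CBA replicate 3, 1 senescence gene rose and 3 fell, where 2.07% of all genes were higher and 6.46% lower. In that fit 1 hedgehog and FGF gene and 1 nerve growth and pain gene fell. After quantile normalization 5 lysosome and 3 heat shock genes rose and 1 hedgehog and FGF gene fell, where 606 of all 19937 genes were higher and 445 lower.

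Most genes called at 40 weeks differed in the same direction at the younger ages. At 18 weeks 708 of the 714 (99.2%) had the same sign, against 74.5% of the genes not called at 40 weeks, and 473 were also called, which is 66.2% of the calls at 40 weeks and 27.2% of the 1742 at 18 weeks (8.74% of all genes, 2.71% higher and 6.02% lower). At 8 weeks 605 (84.7%) had the same sign, against 48.9% of genes not called, and 175 were also called, or 24.5% of the calls at 40 weeks and 50.4% of the 347 at 8 weeks (1.74% of all genes, 1.21% higher and 0.532% lower). None was called in the opposite direction at either age. In all, 156 genes were called at all 3 ages, 90 higher and 66 lower, and 222 at 40 weeks and at neither other age, 72 higher and 150 lower. The ages share no array but share the estimate of spread.

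**Figure D5:**
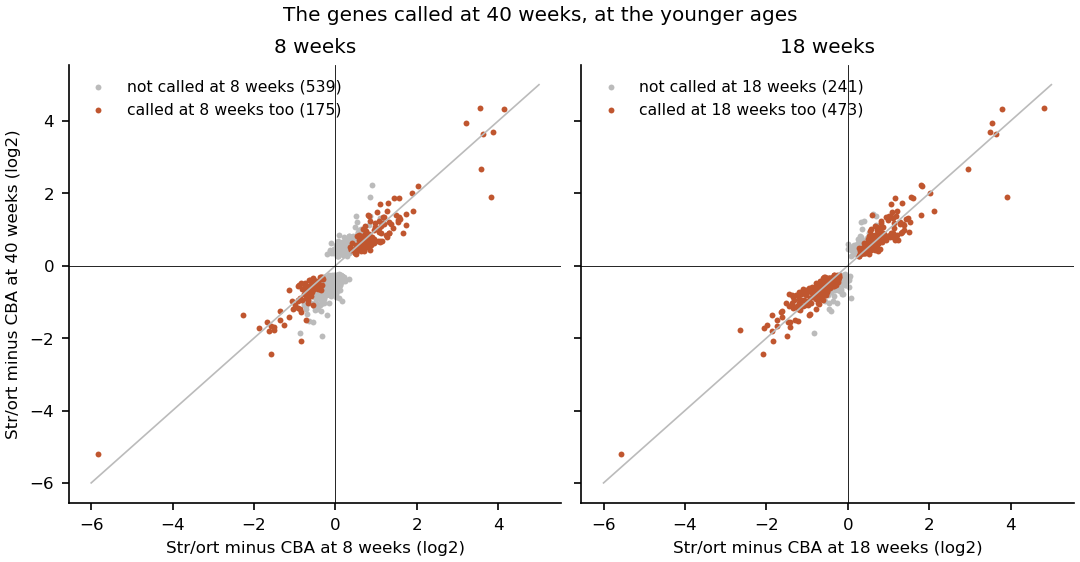
Differences of the 714 genes called at 40 weeks (vertical axis, Str/ort minus CBA, log2) against those at 8 weeks (left) and 18 weeks (right; horizontal axes), with genes also called at that age in red (175 and 473) and the line of equality in grey. Points above 0 or below 0 on both axes have the same sign at both ages; 708 of 714 do so at 18 weeks and 605 at 8 weeks.

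Several genes with large differences had them at every age. Gdpd3 was at 4.14, 3.78 and 4.32 at 8, 18 and 40 weeks, H2-Ea at -5.84, -5.57 and -5.19, Trim12a at 3.88, 3.50 and 3.70, Mcpt2 at 3.62, 3.65 and 3.64 and C4b at 1.88, 2.03 and 2.00. Other genes had values that grew in size with age. The differences of Postn were 0.85 (adjusted p = 0.184), 1.54 and 1.90, and those of Tnfaip6 0.90 (adjusted p = 0.363), 1.80 and 2.22. Cyp2f2 went from -0.34 (adjusted p = 0.674) to -1.49 and -1.93, Ehhadh from -0.02 (adjusted p = 0.918) to -0.50 and -0.68, and Gstz1 from -0.56 (adjusted p = 0.119) to -1.41 and -1.56. Igfbp5 stood at 0.02, -0.15 (adjusted p = 0.579) and -0.77. C1s1 went the other way, from 3.83 and 3.91 to 1.89, with the divided CBA arrays described above. Of the non-cartilage collagens 14 of 20 were called higher at 18 weeks and none at 8 weeks, with medians of 0.58 and 0.17.

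The test of the change itself called none of these. The change of the strain difference from 8 to 40 weeks was called by limma in none of 19937 genes (0%), with the lowest adjusted p at 0.285 and 2596 genes (13%) at an unadjusted p under 0.05. For Ehhadh that change was -0.66 (adjusted p = 0.285), for Slc26a7 -1.22 (adjusted p = 0.29), for Igfbp5 -0.79 (adjusted p = 0.338) and for Postn 1.05 (adjusted p = 0.353). From 18 to 40 weeks none was called either (0%), with the lowest adjusted p at 0.993 and 541 genes (2.71%) at an unadjusted p under 0.05. The median SE of a change was 0.172 and 0.165, against 0.117 for the strain difference at 40 weeks. When both arrays that stood apart were left out, replicate 3 of CBA at 40 weeks and replicate 1 of CBA at 8 weeks, the change from 8 to 40 weeks was called in 157 genes, 10 above 0 and 147 below, and with array weights in 391.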

How the data were processed

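RNA of 23 cartilage samples was measured on 1 array each. The deposited values are log2 signals per transcript cluster, made by the authors with RMA, which corrects background, normalizes quantiles between arrays and summarises probes, per the submitters' processing notes. Software version, genome build, array annotation build and scan dates are not given in the sources used here. The precision is limited by the number of arrays.

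Of 34760 clusters 21640 had 1 gene symbol in the platform annotation, 1321 had several and 11799 had none. Clusters with 1 symbol were used, leaving 19937 genes. Where a gene had more than 1 cluster (954 genes), its brightest by mean signal was taken. RefSeq matched 21553 of these clusters by gene identifier and changed 0 symbols.

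Contrasts came from a linear model of group means over the 23 arrays (limma 3.58.1, R 4.3.3, 17 residual degrees of freedom, empirical Bayes prior of 4.15), and again with CBA 40 weeks replicate 3 left out (16 residual degrees of freedom). All adjusted p-values in the text are limma's with Benjamini-Hochberg adjustment over all genes, at a threshold of 0.05. The change between ages is the difference of 2 strain differences in the same model. On simulated data with 200 changed genes the 40 week contrast recovered 61.2%, 94% and 97% of changes of 0.5, 1 and 2 (log2), with 10 wrong calls of 178. The simulated noise was independent between genes and had the same spread on every array. It held no array that stands apart and no shared muscle RNA, so these rates check the fit and are not rates for the real arrays.

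The comparison, the 35 pathway and 18 cell type lists and the naming rule were chosen with earlier results of these data known. Of 1287 list entries 1179 were measured. The rule names the 12 greatest rises and falls called with and without CBA replicate 3 and without overlap (predicted, clone-named and receptor family symbols passed over), up to 3 called members of each list, Col2a1, Acan, Prg4, Sox9, Col10a1, Mmp13, Mmp3 and Adamts5, the 5 greatest called changes each way between ages, the 5 greatest each way called without replicate 3 alone, and runs of 3 or more neighbouring genes called the same way. For the greatest rises and falls, the lack of overlap and the call without CBA replicate 3 were fixed by the rule and are no further support. Other genes in the text were named after their values were seen. Promoter windows are RefSeq's (250 bases before to 50 after the start, GRCm38.p6). The labels number the replicates without stating a pairing, and the model did not pair them. Deviations from group means of arrays with the same number correlated at -0.327, 0.326, 0.167 and 0.331. Of 8 arrays 5 correlated best with their own number, and whether the numbers mark a pairing was not settled.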

Additional observations from a re-analysis of the deposited data

Results flagged for a closer look

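Among 246 sets of 4 values (named genes and marker list means in each strain at 40 weeks), 27 had 1 array far from the other 3 by Dixon's criterion, which chance meets in about 5% of such sets. CBA replicate 3 was that array in 17 of them, Str/ort replicate 1 in 5, and each of 5 other arrays in 1. The sets were not chosen blind to CBA replicate 3. The naming rule takes in genes called only without it, such as Fxyd6, Adck1 and Cyp2e1, and the muscle mean is what set it apart. Its count therefore cannot be set against the 5%.

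CBA replicate 3 was highest for the skeletal muscle mean (13.06, against 7.85 to 8.34 in the other CBA arrays), for Gpd1 (12.10), for the complex I gene Ndufa10 (12.20) and for Fxyd6 (10.78). It was lowest for the mean of eosinophil, basophil and mast cell markers (7.98) and for Gdpd3 (7.42), Wfdc17 (9.76), H2-Ea (11.56), Tgfbi (10.67), H2-Ob (8.38), Ifitm1 (9.91), Aplnr (9.23), Gpx8 (10.37), Ly6g (13.14), Cd3g (8.29), Adck1 (9.52) and Cyp2e1 (6.51). For Tgfbi the other CBA arrays lay between 11.53 and 11.66, and the strain difference was 0.61 with this array and 0.38 without it.

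Str/ort replicate 1 was highest for the neutrophil mean (12.49, against 12.27 to 12.30) and Il4ra (10.75), and lowest for the macrophage mean (9.27, against 9.64 to 9.70), Itgad (7.82) and Fzd1 (9.03). The remaining single values were CBA replicate 1 for Nfil3 (8.37), CBA replicate 2 for Ttc9 (9.32), Str/ort replicate 2 for Scd1 (11.99), Str/ort replicate 3 for the endothelium mean (9.39) and Str/ort replicate 4 for H2-Ea (7.47).

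Clusters with several genes or with none were outside the comparison. Of these 13120 clusters limma called 251 (1.91%), of which 158 rose and 93 fell in Str/ort, and 425 without CBA replicate 3.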

How the results depend on the processing

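For the strain difference at 40 weeks the 714 calls became 1700 without CBA replicate 3 and 472 without Str/ort replicate 3, the range over the 8 fits with an array left out. They became 3929 with both arrays that stand apart left out (711 of the 714 among them), 4624 with array weights, 1101 with the muscle mean as a covariate (714 kept) and 189 with the 8 arrays alone (181 kept). Of the 88 called genes of the naming rule 41 were kept with the 8 arrays alone. Some whose call no left-out array ended were lost there, such as Col12a1 (adjusted p = 0.16), Tnc (0.101), Cd163 (0.0772) and Sox6 (0.0594). The cause of these changes was not tested. Leaving out the dimmest 40% of genes gave 734, the mean of a gene's clusters 745, an intensity trend with a robust prior 708 and quantile normalization 1051. The replicate number as a block gave 641 calls with 615 of the 714 among them, and 5 of 8 arrays correlated best with their own number. The 1700 calls became 4532 with array weights and 2539 with the 7 remaining arrays alone, and with a further array left out they ranged from 550 (CBA replicate 2) to 1630 (Str/ort replicate 1), with 981 without CBA replicate 1 and 1058 without Str/ort replicate 3, alternatives chosen after seeing the data. Calls for the gene lists at 40 weeks went from 101 to 164 without CBA replicate 3, and were 143 after quantile normalization and 89 with the block. The change of the strain difference from 8 to 40 weeks was called in 157 genes with both arrays that stand apart left out and in 391 with array weights, and in 0 genes under the other alternatives run. The change from 18 to 40 weeks was called in 0 under each of them. Adamts5 turned sign to 0.05 after quantile normalization and ranged from -0.11 to 0.04 with an array left out, with 0.01, 0.04, 0.04 and 0.00 above or at 0.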

Other observations

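Called genes lay beside each other on the chromosome in a few places. Of the genes placed by RefSeq order, 76 called genes had a neighbour called in the same direction, and 2 runs of 3 neighbours were called the same way. On chromosome 11, BC018473, a gene known by its clone name, read 6.42, 6.28, 6.53 and 6.32 in CBA and 10.08, 11.00, 11.29 and 10.60 in Str/ort, a difference of 4.36 ± 0.22 (adjusted p = 2e-11), from CBA levels not shown to be above background. Its neighbours are the sialyltransferase genes St6galnac2 (0.89 ± 0.11, adjusted p = 1.93e-05) and St6galnac1 (0.40 ± 0.10, adjusted p = 0.0203, up to 0.0865 without CBA replicate 2 or Str/ort replicate 2 or 3). No array of Str/ort overlapped CBA in any of the 3, and at 8 weeks the differences were 3.56, 1.12 and 0.15. On chromosome 9, Ube4a, a ubiquitin ligase gene, was lower (-0.28 ± 0.07, adjusted p = 0.0318) beside Cd3g and Cd3d, with a call that 5 of 8 left-out arrays ended (adjusted p of up to 0.0984).

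With both arrays that stand apart left out, the strain difference changed between 8 and 40 weeks in 157 genes, 147 of them downwards. Of these 147, 135 were called lower in Str/ort at 40 weeks in that fit and 22 were called at 8 weeks. The genes given here were chosen after their values were seen. Siglec1 went from -0.21 at 8 weeks to -0.96 at 18 and -1.21 at 40 weeks (adjusted p of the change 0.0456). Fbln5, an elastic fibre gene, went from 0.28 to -0.03 and -0.66 (change -0.94 ± 0.15, adjusted p = 0.0244). Lgals3bp, a secreted galectin ligand, went from 0.51 to -0.01 and -0.56 (change -1.07 ± 0.23, adjusted p = 0.0463). Adamts18, a metalloproteinase gene, went from 1.11 to 0.12 and 0.24 (change -0.87 ± 0.18, adjusted p = 0.0438). With all arrays the adjusted p of these 4 changes lay between 0.29 and 0.349.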
